A study of Arabidopsis thaliana with 12 samples.

Results

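The genes described here are the loci whose array annotation contains the word peroxidase, without those annotated as ascorbate peroxidase, glutathione peroxidase or NADPH oxidase. They numbered 90 of the 32627 loci on the array. The name class III peroxidases fits most of them but not all. The annotation of 77 loci named no other family, and these comprised 72 peroxidase genes, 4 pseudogenes (AT1G33660, AT1G34330, AT1G47705 and AT5G35111) and 1 peroxidase-related locus (AT3G42570). The other 13 belonged to other families: the peroxiredoxins PER1, TPX1, TPX2 and PRXIIF, the annexin ANNAT1, the calcium ATPase ECA3, the galactosidase BGAL1, the homeodomain protein OCP3 and 5 loci with a haloperoxidase domain. Counts below are over all 90 loci unless the 77 are named.

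RNA came from whole 10-day-old seedlings of Arabidopsis thaliana Col-0. The 6 groups were the line labelled gem1, which carries a T-DNA insertion, with and without ABA, the line labelled GEMoe, in which the 35S promoter drives GEM, with and without ABA, and wild type with and without ABA. ABA is abscisic acid, a hormone of drought and seed dormancy, and was given at 100 μM for 2 hours. Each group had 2 biological replicates on 1 array each, 12 arrays in all, and the labels do not say whether each altered line was 1 clone. No mock treatment is named in them, and the effects of handling and of time cannot be told apart from those of ABA. All values are log2 expression values as deposited, differences are on that scale, and the array medians lay between 12.16 and 12.22. ABA-responsive genes checked the treatment: RAB18, LTI65, KIN1 and CYP707A1 rose by 2.34 to 3.99 (limma adjusted p = 0.000416 or lower), and LTI78 differed by 0.20 (adjusted p = 0.16).

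GEM itself (AT2G22475) was read by a pair of features. The first stood at 15.73 and 15.80 in GEMoe seedlings with and without ABA (means, n = 2 each), against 14.39 and 14.30 in wild type. On the arrays labelled gem1 it stood at 14.52 and 14.50, so it was not lower there than in wild type. The second stood at 11.43 and 11.39 on the arrays labelled gem1 with and without ABA, against 9.43 and 9.52 in wild type. In GEMoe replicate 1 the second read 11.98 with ABA and 11.36 untreated, and in GEMoe replicate 2 it read 9.38 and 9.56. Directions drawn from gem1 therefore refer to the arrays labelled gem1.

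Class III peroxidases are secreted haem enzymes of plants that oxidise phenolic compounds with hydrogen peroxide. They join monolignols into lignin, stiffen walls by cross-linking their proteins and phenolics, and can also release reactive oxygen species that loosen walls. In seedlings they are best known from the root, where single members serve in the Casparian strip, in root hairs and at the border between division and elongation.

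Over the 3 genotypes more of the peroxidase loci were called lower with ABA than higher. A limma fit of the 6 group means on all 12 arrays, with Benjamini-Hochberg adjustment over all 32627 loci and a threshold of 0.05, called 4 loci higher and 17 lower with ABA. Of all loci, 5.6% were called higher and 5.2% lower. The median difference was -0.15 over the 90 loci and -0.03 over all loci. A difference below 0 was seen in 65 of the 90 loci (72.2%), against 58.2% of all loci. Among the 77 loci of no other family, 4 were higher and 15 lower. With the replicate number as a block, which pairs the arrays of 1 replicate number, 8 loci were higher and 28 lower, against 9.27% and 12.9% of all loci, and all 21 loci called without the block were among them. In 34 loci the ABA array was the lower one in each of the 6 pairs of genotype and replicate, and in 7 it was the higher one in each, against 15.7% and 10.8% of all loci. All 6 ABA arrays lay under all 6 untreated arrays in 18 loci and above them in 6, against 6.01% and 6.14% of all loci. In fits of 1 replicate set alone, added after seeing the data, set 1 gave 5 higher and 22 lower loci, against 5.72% and 5.23% of all loci, and set 2 gave 6 and 10, against 4.74% and 3.4%. Calls in either direction took in 10.8% of all loci without and 22.2% with the block.

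**Figure D1:**
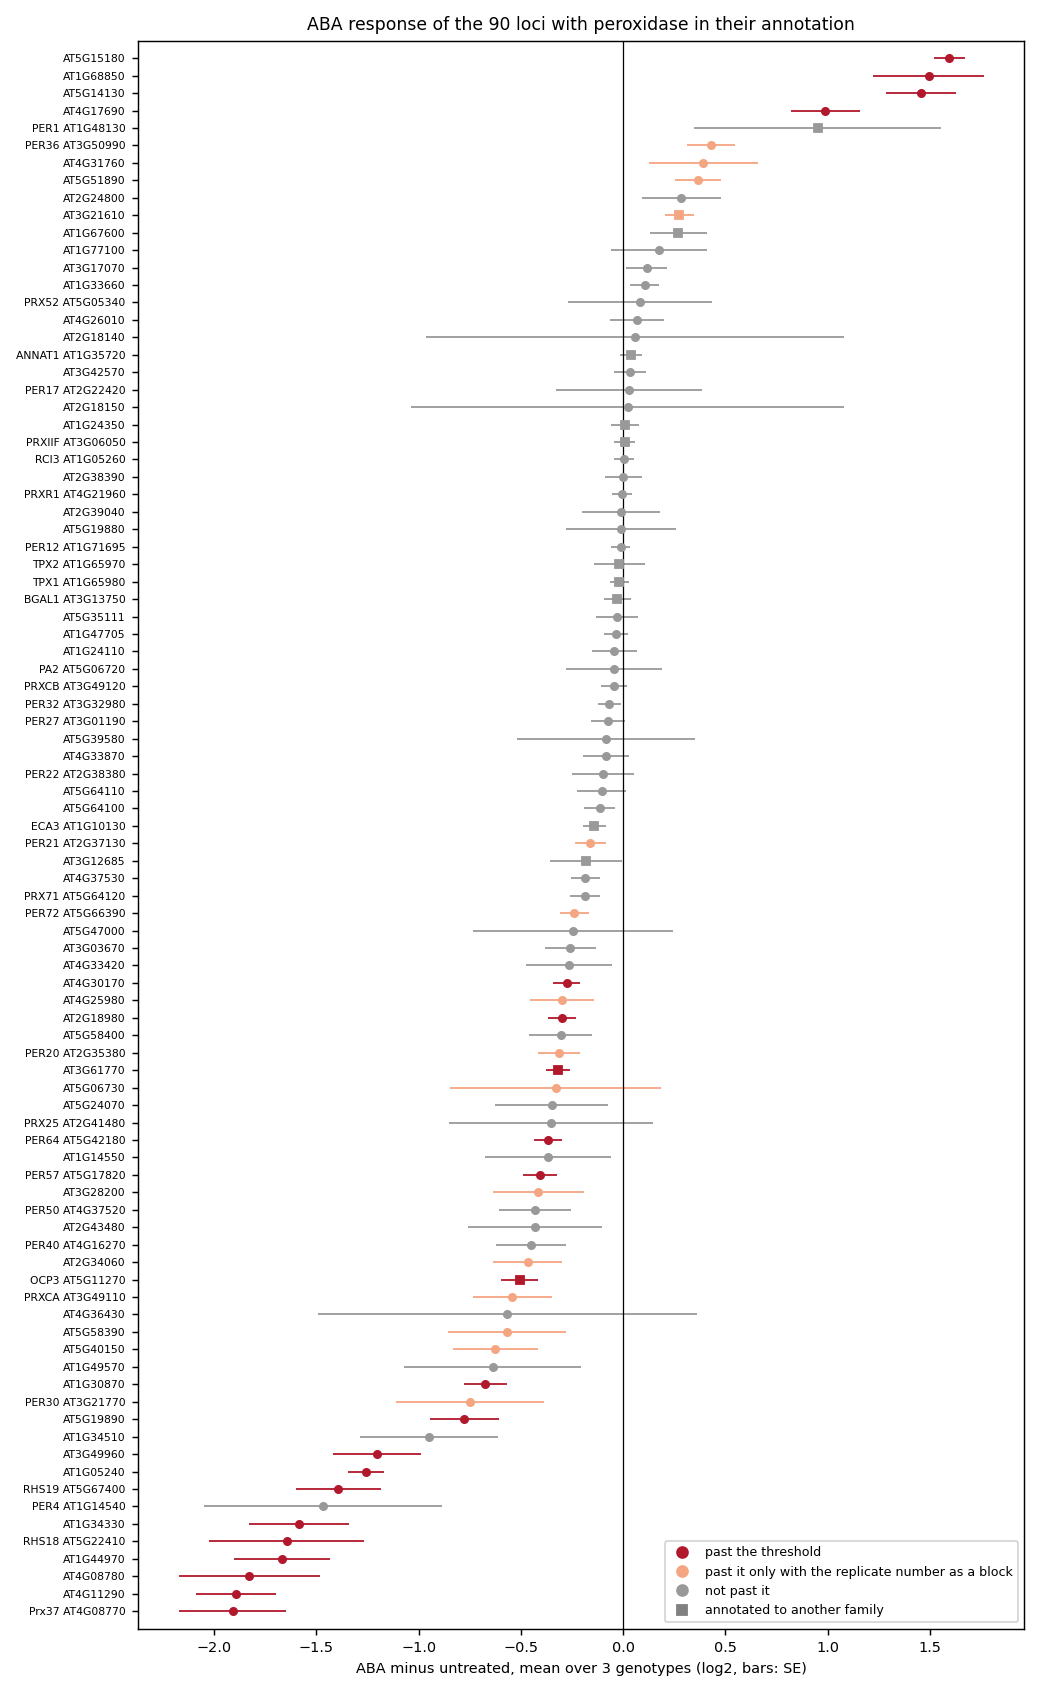
ABA minus untreated, averaged over 3 genotypes, for each of the 90 loci on the horizontal axis (log2), with bars of 1 SE. Dark red marks the 21 loci past the threshold, pale red those past it only with the replicate number as a block, grey the rest, and squares the loci annotated to another family. The 4 higher loci lie between 0.99 and 1.59 and the 17 lower ones between -1.91 and -0.28.

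The 4 loci that rose are annotated as peroxidases and go by their locus names here. AT5G15180 (chr5:4930519-4932363; positions follow the array's own gene descriptions, and their genome build is not named in the files) ran from 14.63 to 14.76 on the 6 ABA arrays (median 14.72), against 12.98 to 13.34 on the 6 untreated arrays (median 13.08). The groups stood far apart, and the ABA arrays were almost level. It was 3.02-fold higher (log2 1.59, SE 0.08, adjusted p = 5.53e-05), the lowest adjusted p of the 90 loci.

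AT1G68850 (chr1:25883616-25885247) ran from 14.46 to 14.81 with ABA (median 14.72), against 12.58 to 13.77 untreated (median 13.21). Its untreated arrays split by replicate, with 13.58 to 13.77 in replicate 1 and 12.58 to 12.84 in replicate 2, while the ABA arrays did not. It rose by 1.49 (SE 0.27, 2.82-fold, adjusted p = 0.0124), and the mean difference was 1.06 in replicate 1 and 1.93 in replicate 2. AT5G14130 (chr5:4558704-4560067) ran from 14.99 to 15.31 with ABA (median 15.14), against 13.30 to 14.14 untreated (median 13.63), and rose by 1.46 (SE 0.17, 2.75-fold, adjusted p = 0.00194). No ABA array of either locus reached down to an untreated one.

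AT4G17690 (chr4:9846127-9847107) was read near the low end of the scale, from 9.52 to 10.42 with ABA (median 9.93), against 8.71 to 9.47 untreated (median 8.85). The groups met without overlapping, since wild type replicate 2 without ABA stood at 9.47 and wild type replicate 1 with ABA at 9.52. It rose by 0.99 (SE 0.17, 1.98-fold, adjusted p = 0.00997).

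Root hairs are outgrowths of epidermal cells, and the peroxidases active in them change the wall during tip growth. The gene lists here and below came from general knowledge, and were chosen with earlier results of these data known. Of 8 loci listed for root hairs 5 fell and none rose, with a list median of -0.94. For this and the later lists, 5.6% of all loci were called higher and 5.2% lower, or 9.27% and 12.9% with the block. RHS18 (AT5G22410), named as ROOT HAIR SPECIFIC, ran from 9.06 to 10.53 with ABA (median 9.73), against 10.71 to 11.97 untreated (median 11.63), and fell by 1.64 (SE 0.38, adjusted p = 0.0319). Its replicates differed: on the arrays labelled gem1 and in wild type the ABA arrays of replicate 1 stood at 9.26 and 9.06, against 11.86 and 11.97 untreated. In replicate 2 they stood at 10.37 and 10.53, against 10.74 and 10.71 untreated. In GEMoe seedlings both replicates were low with ABA, at 9.98 and 9.48, against 11.64 and 11.63 untreated. RHS18 passed in 4 of the 12 fits that left out 1 array, those without replicate 2 of gem1 or wild type, with or without ABA, and its adjusted p reached 0.0879.

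RHS19 (AT5G67400), the other locus of that name, ran from 12.07 to 13.11 with ABA (median 12.49), against 13.75 to 14.15 untreated (median 13.95), and fell by 1.39 (SE 0.21, adjusted p = 0.00546). AT3G49960 ran from 12.26 to 13.25 with ABA (median 12.74), against 13.59 to 14.21 untreated (median 14.00), and fell by 1.20 (SE 0.22, adjusted p = 0.0121). In both loci every ABA array lay under every untreated array, and in AT3G49960 the mean difference was -1.68 in replicate 1 and -0.73 in replicate 2. The close copy of AT1G05240, AT1G05250, has no feature among the deposited values, so the share of each in the signal is uncertain. AT1G05240 (chr1:1521137-1522681) ran from 13.99 to 14.40 with ABA (median 14.22), against 15.36 to 15.57 untreated (median 15.48). It fell by 1.26 (SE 0.09, 2.39-fold, adjusted p = 0.000228), and both replicates gave it nearly alike, by -1.32 and -1.19. AT1G30870 ran from 14.20 to 14.77 with ABA, against 15.13 to 15.21 untreated, and fell by 0.67 (SE 0.11, adjusted p = 0.00655). The other 3 root hair loci did not pass: AT5G64100 differed by -0.11, AT5G39580 by -0.08 and AT4G26010 by 0.07.

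Other root hair genes moved the same way. Of 11 root hair markers 6 fell and none rose, and all 11 differences were below 0 (median -0.80). RHS13 fell by 1.91 (SE 0.21, adjusted p = 0.00159), EXPA18, a wall-loosening expansin, by 1.06, the wall protein gene PRP3 by 0.97 and the actin-depolymerising factor ADF8 by 0.90. The mean level of the 11 markers was 11.46 to 11.99 with ABA, against 12.20 to 12.72 untreated. Their part in the peroxidase result was not tested. In whole seedlings, fewer cells of a type and less RNA per cell cannot be told apart.

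**Figure D2:**
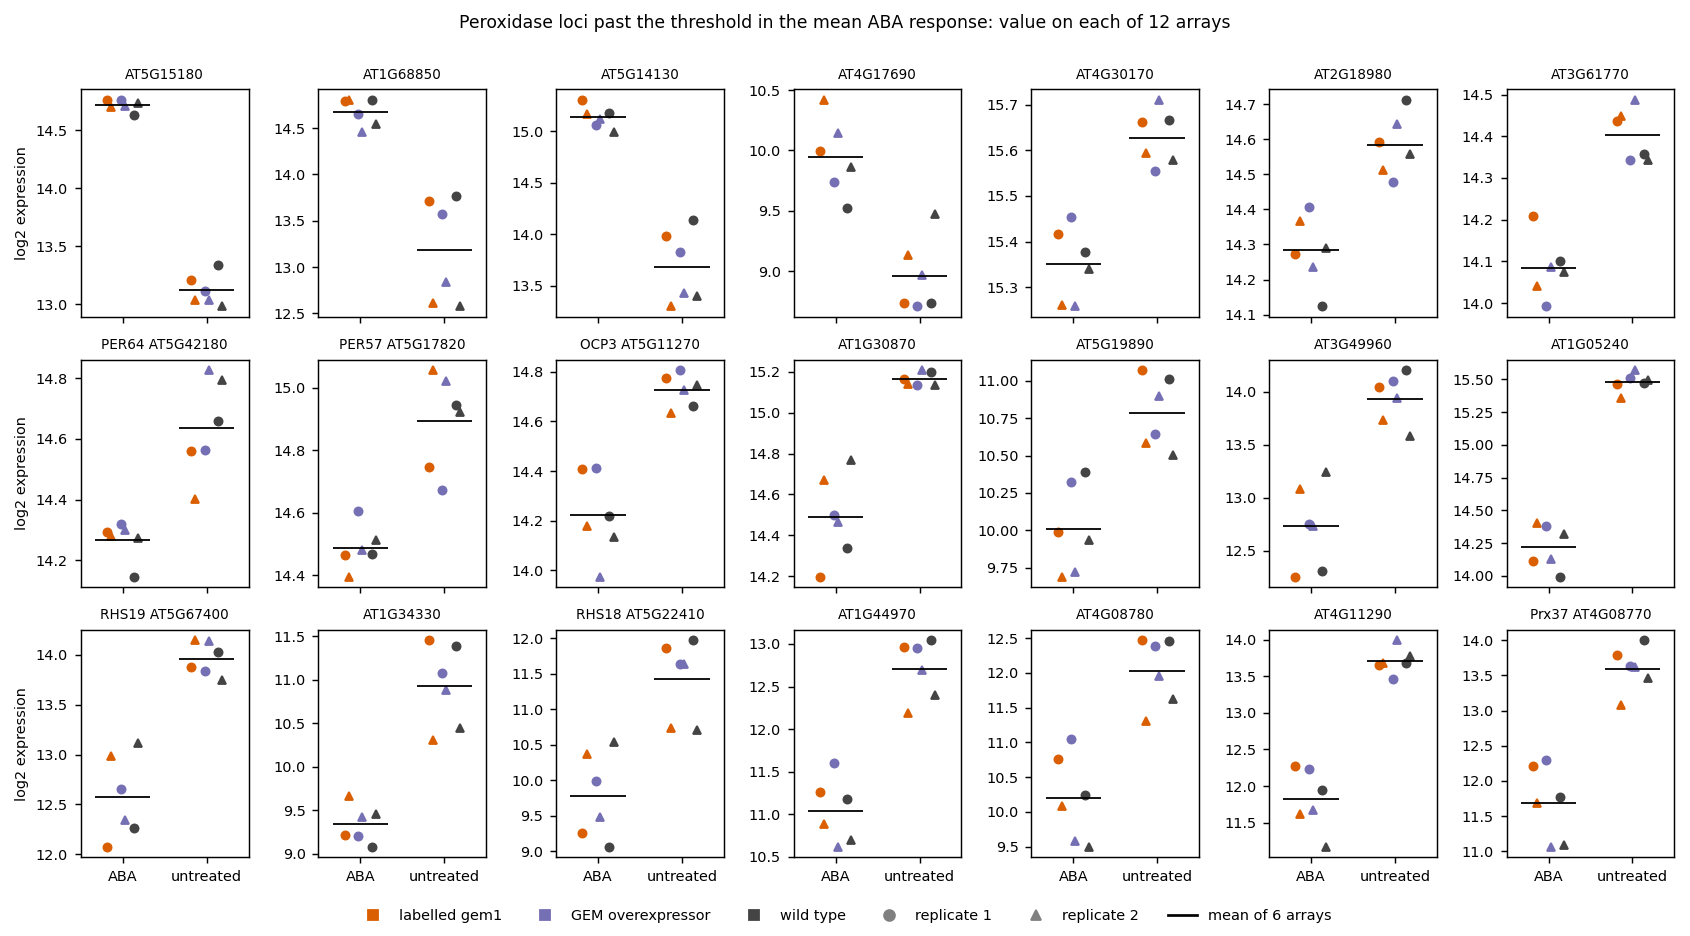
Values on each array (log2, vertical axis, with its own range in each panel) of the 21 loci past the threshold, with the 6 ABA arrays left of the 6 untreated ones, in order of the ABA difference. Colours give the genotype, circles and triangles the replicate, and lines the mean of 6 arrays. In each of the 21 panels the ABA and untreated arrays do not overlap.

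The Casparian strip is a lignin band in the walls of the root endodermis that seals the space between its cells. Of 5 peroxidases listed for it, 3 fell and none rose (4 with the replicate block), with a median of -0.37. The share of all loci called lower was 5.2% without and 12.9% with the block. AT4G11290 ran from 11.17 to 12.27 with ABA (median 11.81), against 13.47 to 13.99 untreated (median 13.68), and fell by 1.89 (SE 0.19, 3.72-fold, adjusted p = 0.0011). AT1G44970 ran from 10.62 to 11.60 with ABA (median 11.03), against 12.18 to 13.04 untreated (median 12.83), and fell by 1.67 (SE 0.23, 3.18-fold, adjusted p = 0.00414). Neither locus overlapped between treatments on any array. PER64 (AT5G42180), a peroxidase localised at the Casparian strip, changed far less, from 14.15 to 14.32 with ABA and 14.40 to 14.83 untreated, and fell by 0.37 (SE 0.07, adjusted p = 0.0146). Without the ABA array of gem1 replicate 2 its adjusted p was 0.0524. PER72 (AT5G66390), also known for lignin, differed by -0.24 (SE 0.07, adjusted p = 0.0832, and 0.0129 with the block), and RCI3, a cold-inducible peroxidase, by 0.00 (SE 0.05).

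Of 9 genes of the strip that are not peroxidases 6 fell and 1 rose, with a median of -0.38. The scaffold proteins CASP2 and CASP4 fell by 1.02 and 1.14 and AT1G61590 fell by 1.21, while the scaffold protein CASP5 rose by 0.92 (SE 0.07, adjusted p = 0.000228). The mean level of the 9 loci was 12.42 to 12.91 with ABA, against 12.92 to 13.24 untreated. Of 9 further root markers 3 fell and none rose (5 and none with the block), with a median of -0.74 and a mean level of 11.27 to 11.91 with ABA, against 12.08 to 12.68 untreated. Of 16 leaf markers none passed (median 0.00), and 1, RBCS1B, passed with the block at -0.55. The mean level of the leaf markers was 15.31 to 15.43 with ABA, against 15.36 to 15.42 untreated. That is near the top of the scale (highest value 15.95), so the leaf and root lists are not compared at like levels. The part of the root and leaf markers in the peroxidase result was not tested.

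UPB1 is a bHLH transcription factor that represses peroxidase genes at the border of the root's elongation zone. It ran from 13.44 to 13.88 with ABA (median 13.60), against 11.62 to 12.59 untreated (median 12.17), and rose by 1.49 (SE 0.21, adjusted p = 0.00461). Of the 3 peroxidases listed for it, AT4G11290 fell as above and PER57 (AT5G17820) fell by 0.41 (SE 0.08, adjusted p = 0.0221), from arrays of 14.40 to 14.61 with ABA and 14.67 to 15.06 untreated. PER57 passed in 4 of the 12 fits that left out 1 array. PER40 (AT4G16270) differed by -0.45 (SE 0.17, adjusted p = 0.165), with -0.76 in replicate 1 and -0.14 in replicate 2.

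Of 8 loci on the array listed for lignin, which include PER64 and PER72 of the Casparian strip list, 1, PER64, fell and none rose, with a median of -0.21 (1 higher and 2 lower with the block). PRX71, which acts on wall strength, differed by -0.19 (SE 0.07), PRX25 by -0.35 (SE 0.50), PRX52 by 0.08 (SE 0.35) and PER17 by 0.03 (SE 0.36). AT5G51890 differed by 0.37 (SE 0.11, adjusted p = 0.0847, and 0.0395 with the block), and its ABA arrays, from 14.03 to 14.26, lay just above the untreated ones, from 13.51 to 14.00. PRX25 and PRX52 disagreed between replicates: PRX25 differed by -0.91 in replicate 1 and 0.21 in replicate 2, and PRX52 by -0.55 and 0.71.

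PER4 (AT1G14540), of the lignin and the oxidative burst lists, had the sharpest split of this kind. In replicate 1 it stood at 11.57 on the arrays labelled gem1, 11.96 in GEMoe and 11.48 in wild type seedlings with ABA, against 11.64, 11.53 and 11.75 untreated. In replicate 2 it stood at 11.07, 10.43 and 10.35 with ABA, against 13.71, 13.68 and 13.37 untreated. Its mean difference was thus 0.03 in replicate 1 and -2.97 in replicate 2, and the pooled value of -1.47 (SE 0.58, adjusted p = 0.182) passed neither without nor with the block. The difference between the replicates was not tested.

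The oxidative burst of the cell wall, a release of reactive oxygen in defence, draws on PRXCA and PRXCB. Of 4 loci listed for the burst none passed, and PRXCA passed with the block. PRXCA (AT3G49110) ran from 12.50 to 13.71 with ABA (median 13.50), against 13.58 to 14.12 untreated (median 14.04), which overlapped, and differed by -0.54 (SE 0.19, adjusted p = 0.139, and 0.0304 with the block). PRXCB (AT3G49120), its close copy, differed by -0.04 (SE 0.06), and the share of each in the other's signal is uncertain.

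Of 7 loci listed for flowers and seeds 1 fell, AT1G44970 above, and none rose (2 and 1 with the block). PER30 (AT3G21770) ran from 13.30 to 14.60 with ABA (median 13.81), against 13.99 to 15.18 untreated (median 14.63). Replicate set 2 minus set 1 was -0.98. Within the replicates every ABA array was the lower one, by -0.68 on average in replicate 1 and -0.82 in replicate 2, and the difference of -0.75 had an adjusted p of 0.29 without and 0.000603 with the block. PER36, which acts on the seed coat mucilage, differed by 0.43 (SE 0.12, adjusted p = 0.0607, and 0.0302 with the block). PER40 is given above, AT1G77100 differed by 0.18, AT5G19880 by -0.01 and PA2 by -0.04.

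Among the largest falls of the 90 loci were those of a pair of neighbours on chromosome 4. Prx37 (AT4G08770, chr4:5598115-5600312) ran from 11.06 to 12.30 with ABA (median 11.73), against 13.08 to 14.00 untreated (median 13.62), and fell by 1.91 (SE 0.26, 3.76-fold, adjusted p = 0.00387). AT4G08780 (chr4:5604153-5608202), which starts 3840 bases further on, ran from 9.50 to 11.05 with ABA (median 10.17), against 11.31 to 12.47 untreated (median 12.17), and fell by 1.83 (SE 0.35, 3.55-fold, adjusted p = 0.0147). Without the ABA array of replicate 2 of wild type, or of gem1, the adjusted p of AT4G08780 was 0.0501 or 0.0523. The pair encode closely similar proteins, so the share of each in the signal is uncertain.

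Among 14 pairs of peroxidase-annotated loci less than 10 kb apart, that pair was the only one in which both loci passed. In 2 pairs 1 locus passed. AT1G05240 fell while RCI3, 7085 bases away, did not pass. AT5G19890 fell by 0.78 (SE 0.17, adjusted p = 0.0259), from arrays of 9.69 to 10.39 with ABA and 10.50 to 11.07 untreated, while its neighbour AT5G19880 did not pass. AT5G19890 passed in 5 of the 12 fits that left out 1 array. In the remaining 11 pairs neither locus passed.

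The pseudogene AT1G34330 ran from 9.08 to 9.66 with ABA (median 9.32), against 10.31 to 11.45 untreated (median 10.98), and fell by 1.59 (SE 0.24, adjusted p = 0.00618). Whether its probes read a related gene was not tested. Of the 13 loci of other families, OCP3, a homeodomain protein that restrains defence, fell by 0.50 (SE 0.09, adjusted p = 0.0119), and AT3G61770, with a haloperoxidase domain, by 0.32 (SE 0.06, adjusted p = 0.0118). PER1, a peroxiredoxin of seeds, differed by 0.95 (SE 0.60, adjusted p = 0.465), with 0.13 in replicate 1 and 1.77 in replicate 2. The smallest falls past the threshold, named after their values were seen, were those of AT2G18980 by 0.30 and AT4G30170 by 0.28 (SE 0.07 and 0.06). They passed in 3 and 2 of the 12 fits that left out 1 array.

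Many of the loci stood near the top of the scale. The mean untreated value was over 15 in 20 of the 90 loci (22.2%), against 11.2% of all loci, where the highest value on any array was 15.95. Of these 20 loci none was called higher and 3 were called lower (AT1G05240, AT1G30870 and AT4G30170), against 2.32% and 4.13% of the 3660 loci over 15 on the whole array. The differences of the 20 ran from -1.26 to 0.04. PRXR1, at 15.82 to 15.90 untreated, differed by -0.01, and PER12, PER27 and PER32 by -0.01, -0.07 and -0.07. PER21 (AT2G37130) had a pair of features. The brighter one, used here, differed by -0.16 (adjusted p = 0.267 over all features), and the dimmer one fell by 0.80 (SE 0.21, adjusted p = 0.0474 over all features).

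Among related enzymes, those of monolignol synthesis were called in both directions. Only 1 laccase and 1 ascorbate peroxidase were called and no catalase, and both called loci rose, where 5.6% of all loci were called higher. Of 18 loci of monolignol synthesis 3 rose and 3 fell (4 and 4 with the block, median 0.01). The phenylalanine lyase PAL4 rose by 1.36, the reductase CCR2 by 1.51 and the dehydrogenase CAD5 by 1.44, while PAL3, PAL2 and CAD4 fell by 0.79, 0.33 and 0.21. Of 9 laccases, copper enzymes that also polymerise monolignols, LAC5 rose by 1.29 (SE 0.32, adjusted p = 0.0421) and none fell. With the replicate block 4 laccases rose, LAC12 by 1.96 (SE 0.64, adjusted p = 0.107 without and 0.00912 with it). Of 10 catalases and ascorbate peroxidases, which remove hydrogen peroxide inside the cell, APX2 rose by 3.12 (SE 0.50, adjusted p = 0.00731), and CAT1, CAT2 and CAT3 differed by 0.06, -0.04 and -0.00.

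**Figure D3:**
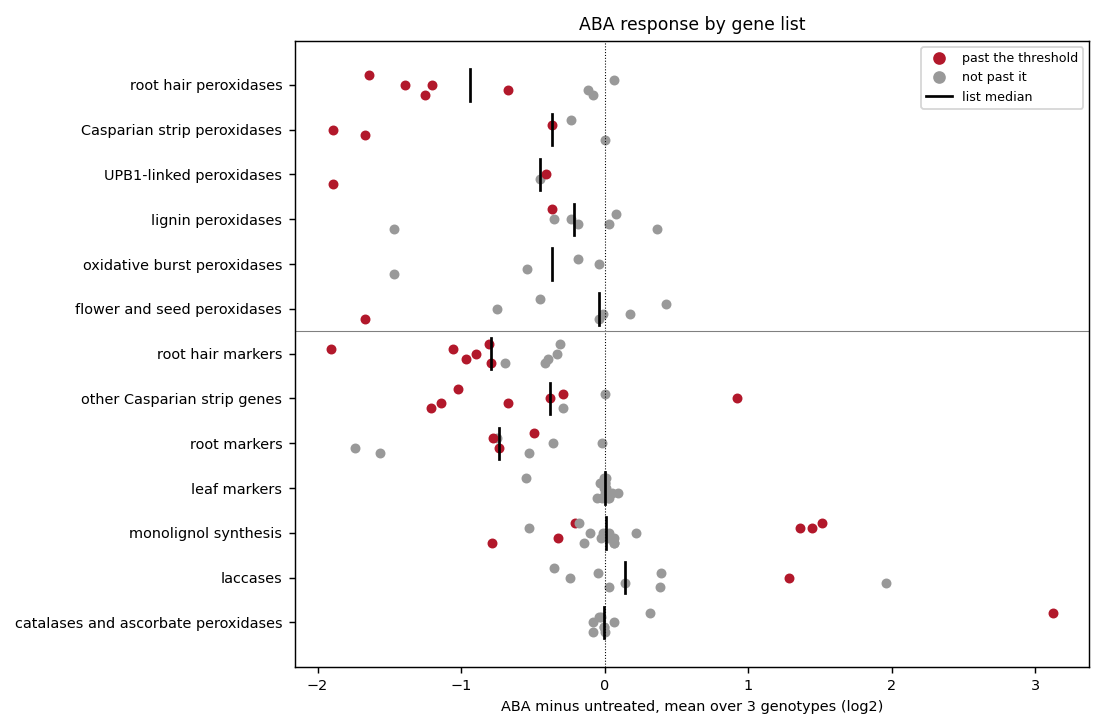
ABA minus untreated averaged over 3 genotypes (log2, horizontal axis) for each locus of 13 gene lists, with peroxidase lists above the line and other lists below it. Red points passed the threshold, grey points did not, and black bars are list medians. The medians of the root hair peroxidases and root hair markers were -0.94 and -0.80, and those of the leaf markers and monolignol genes 0.00 and 0.01. The leaf markers stood near the top of the scale.

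Taken one genotype at a time, with 2 ABA arrays against 2 untreated ones, few loci passed. The counts were 1 higher and 1 lower on the arrays labelled gem1, 1 and 1 in GEMoe seedlings, and 1 and 2 in wild type. The shares of all loci called higher and lower were 1.18% and 0.273% for gem1, 1.19% and 0.365% for GEMoe, and 1.06% and 0.306% for wild type. AT5G15180 was the higher locus in each, by 1.61, 1.66 and 1.52 (SE 0.13), and AT1G05240 was lower in each, by -1.15, -1.29 and -1.33 (SE 0.15). AT4G11290 was also called in wild type, at -2.17 (SE 0.34). With the replicate block 5 were higher and 9 lower on the arrays labelled gem1 (3.72% and 1.83% of all loci), 4 and 9 in GEMoe (3.5% and 2.35%), and 4 and 9 in wild type (3.33% and 2.69%). Leaving out the ABA array of wild type replicate 2 left no call in wild type. Without wild type replicate 2 untreated or replicate 1 with ABA, AT5G15180 alone remained. AT1G05240 was lost for gem1 without any 1 of the 4 gem1 arrays, with an adjusted p of up to 0.128, and for GEMoe without either untreated array or replicate 2 with ABA, with one of up to 0.0975.

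The 21 loci called over the 3 genotypes had no overlap between ABA and untreated arrays. Their direction was therefore bound to be the same in each genotype. No locus of the 90 had an ABA response that differed between an altered line and wild type past the threshold in limma, without or with the block. At an unadjusted p under 0.05 there were none for gem1 and none for GEMoe (3 and 4 with the block), against 0.638% and 0.549% of all loci (2.72% and 2.03% with the block). Those with the block, named after their values were seen, were Prx37, AT4G17690 and AT5G06730 for gem1, and AT3G12685, AT4G17690, AT4G33870 and AT5G06730 for GEMoe. Over the 21 called loci the difference of the response from wild type ran from -0.39 to 0.81 for gem1 and from -0.36 to 0.52 for GEMoe. The precision varied by locus, with SEs of 0.14 to 0.93 (median 0.42). These SEs and the intervals that follow are from the fit without the block. For AT5G15180 the 95% interval of the difference was -0.35 to 0.52 for gem1 and -0.30 to 0.57 for GEMoe. For RHS18, the least precise of the 21, it was -2.10 to 2.22 for gem1 and -2.52 to 1.80 for GEMoe. Prx37 had the largest difference for gem1, falling by 1.49 on the arrays labelled gem1 and by 2.30 in wild type (difference 0.81, SE 0.64).

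**Figure D4:**
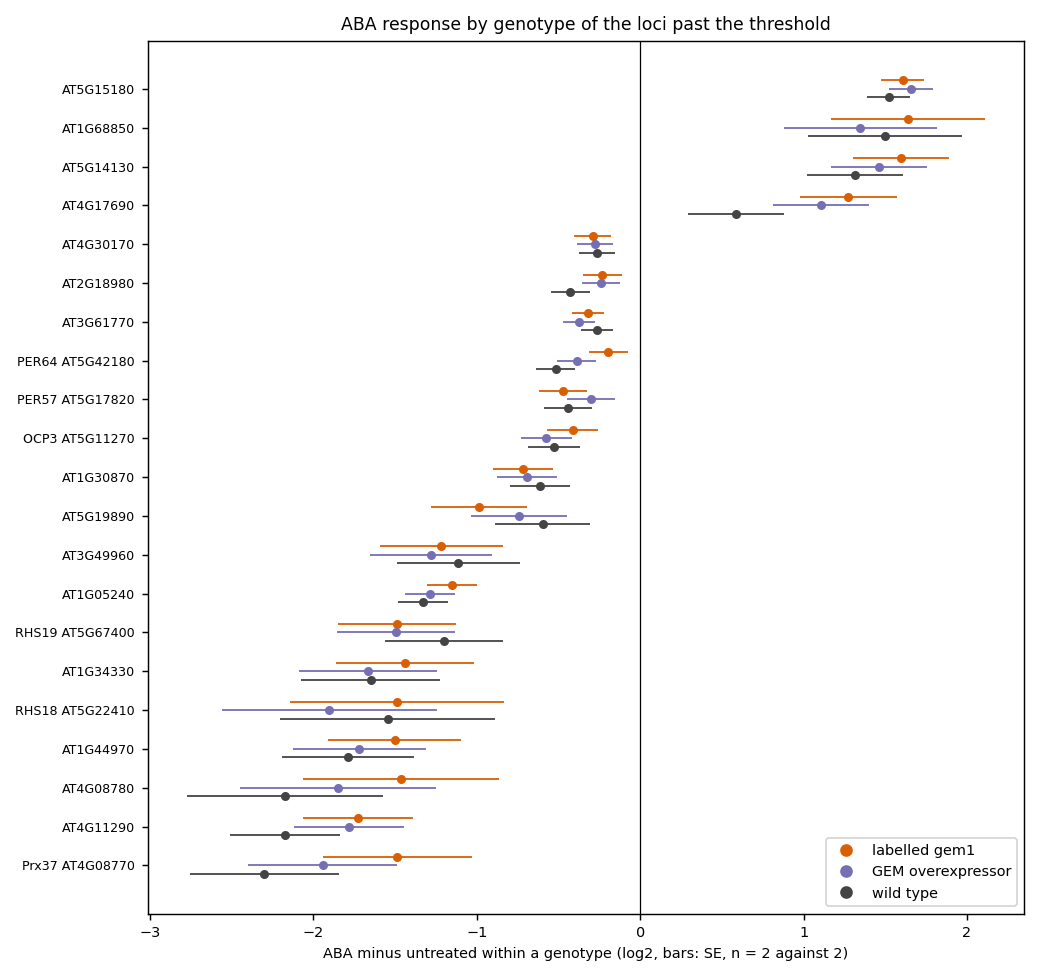
ABA minus untreated within each genotype (log2, horizontal axis, bars of 1 SE, 2 arrays against 2) for the 21 loci past the threshold over the 3 genotypes. Orange, purple and dark grey are the arrays labelled gem1, GEM overexpressor and wild type. Every point lies on the same side of 0 as its locus's mean response, which the lack of overlap between ABA and untreated arrays fixes.

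For neither altered line did any of the 90 loci pass the threshold against wild type, over both treatments, with ABA or without it (0 calls in limma, with and without the block). Over both treatments the SE of a difference without the block ran from 0.06 to 1.30 over the 90 loci (median 0.19, and 0.12 with the block). Without the block the 95% interval of AT5G15180 was -0.21 to 0.22 for gem1 and -0.23 to 0.20 for GEMoe. That of AT2G18150, the least precise in this fit, was -3.49 to 2.54 and -3.08 to 2.95. The fit without the block counts the difference of AT2G18150 between replicate sets (-2.87) as spread. Its intervals are therefore wider than those of a fit that pairs the replicates. Over both treatments 1 locus for gem1 and none for GEMoe had an unadjusted p under 0.05 (2 and 2 with the block), against 0.564% and 0.567% of all loci (2.2% and 2.29% with the block). Adjusted calls over all loci made up 0.00306% for GEMoe and none for gem1. The locus was PRX71, named after its value was seen, which was higher by 0.22 on the arrays labelled gem1 than in wild type (SE 0.09, unadjusted p = 0.0423 in limma, adjusted p = 1). With the block they were PRX71 and AT4G31760 for gem1, and PRXCA and AT5G06730 for GEMoe. With ABA alone 1 locus for gem1, again PRX71 at 0.33, and none for GEMoe passed the unadjusted threshold (5 and 3 with the block), against 0.87% and 0.763% of all loci (3.37% and 2.45% with the block). Without ABA none did for either line (3 and 2 with the block), against 0.493% and 0.509% (1.95% and 1.94% with the block). The differences over both treatments ran from -0.47 to 0.49 for gem1 and from -0.34 to 0.56 for GEMoe. The upper end was AT1G34510 in both. It passed no test of ABA either, at -0.95 (SE 0.34, adjusted p = 0.135), and it read 10.03 and 10.91 on the arrays labelled gem1, 11.18 and 9.91 in GEMoe and 9.65 and 10.62 in wild type seedlings with ABA.

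The replicate sets also differed, in 32 loci, against 36 for ABA in the same fit with the block. Of these 9 were higher and 23 lower in replicate set 2 than in set 1, against 26.1% and 21% of all loci (47% in either direction). The labels call the replicates biological and do not say what set 1 and set 2 shared. AT2G18150 (chr2:7892133-7893653) stood at 10.76 to 12.61 in set 2, against 14.34 to 15.03 in set 1. It was 7.30-fold lower in set 2 (log2 -2.87, SE 0.22, limma adjusted p = 0.00066).

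Its neighbour AT2G18140, 3254 bases away, was 6.88-fold lower (log2 -2.78, SE 0.18, adjusted p = 0.000512), and AT4G36430 was 5.62-fold lower (log2 -2.49, SE 0.22, adjusted p = 0.00108). These 3 loci had ABA differences of 0.02, 0.06 and -0.57, with SEs of 1.06, 1.02 and 0.93 without the block. With the block each ABA difference has the same, smaller SE as the set difference of its locus, and none of the 3 passed. AT2G18140 and AT2G18150 are neighbours whose share in each other's signal is uncertain. AT5G06730 was lower by -1.40 (SE 0.09). The 4 largest rises in set 2 past the threshold were PER1 at 1.35, AT4G31760 at 0.70, AT1G77100 at 0.60 and AT3G28200 at 0.57. PER1 passed in 6 of the 12 fits that left out 1 array.

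**Figure D5:**
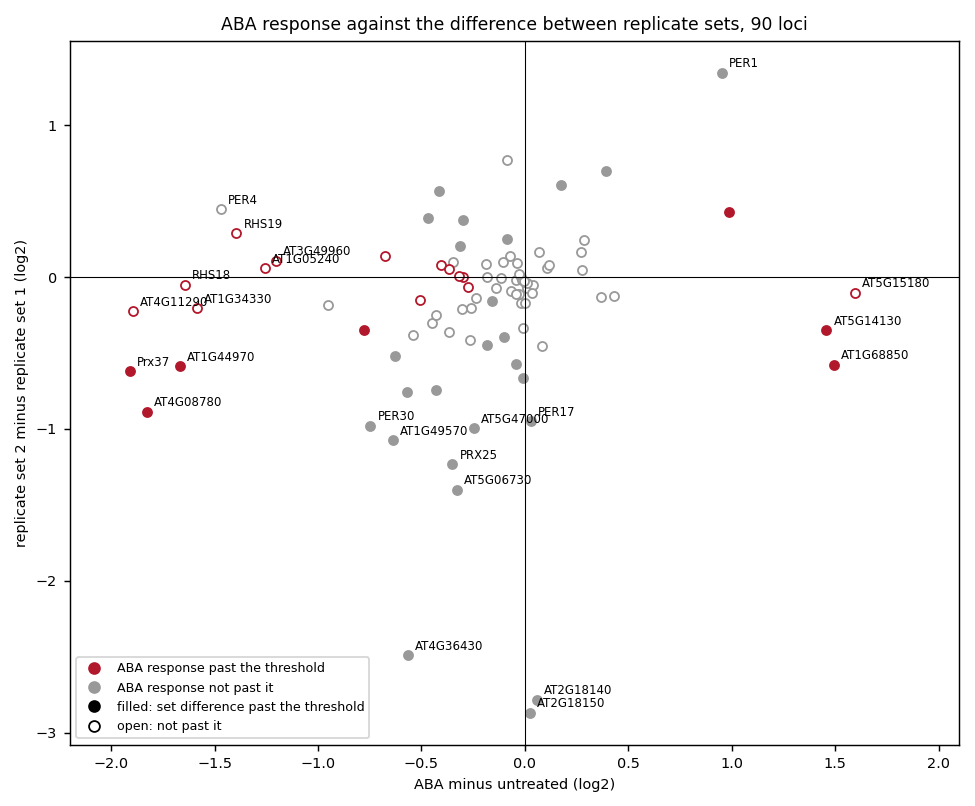
ABA minus untreated (log2, horizontal axis) against replicate set 2 minus set 1 (log2, vertical axis) for the 90 loci. Red points passed the threshold for ABA, and filled points passed it for the set. AT2G18150, AT2G18140 and AT4G36430, at -2.87 to -2.49 on the vertical axis, were not past the threshold for ABA, and AT5G15180 and AT1G05240, at -0.10 and 0.06, were past it for ABA alone.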

How the data were processed

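Cy3-labelled cDNA from total RNA was hybridised to 12 one-colour arrays. Each transcript feature has 1 deposited log2 value. The submitters' processing notes name RMA, without a version, as the authors' method, and the log2 scale was inferred from the range of 6.99 to 15.95. RMA brings the arrays to a common distribution, so a difference is relative to the whole of each array. Per the file headers each value of a member rests on 3 or 4 probes. The series table held the same values (largest difference 0 over 37118 features).

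The feature with the highest mean over 12 arrays stood for its locus. One fit of 6 group means with lmFit and eBayes, without a trend, in limma 3.58.1 (R 4.3.3) left 6 residual degrees of freedom, or 5 with the replicate number as a block. All tests were two-sided. P-values were adjusted over 32627 loci by Benjamini and Hochberg's method, at a threshold of 0.05. Deviations of same-numbered replicates from their group means correlated in all 15 pairs of groups (0.44 to 0.88), so the numbers were taken to pair the samples. The fit without the block was tested on simulated data with independent spread and no difference between replicate sets. That test therefore does not cover the set difference seen in the real arrays.

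Members and gene lists were chosen with earlier results of these data known. Named were up to 15 loci called in each direction for ABA over all genotypes, up to 4 in other contrasts, all loci of the 6 peroxidase lists, and up to 4 loci of other lists. Names came from the array annotation and the TAIR10.1 gene table, which held all 90 loci. Locus AT1G05250 has no feature among the deposited values, and protein and promoter sequences were not analysed here. Tried besides were the block, each array left out, fits on the arrays of 1 contrast, array weights, a trend of variance with level, quantile normalization, the loss of the dimmest 30% of loci, every feature and peroxidases alone. Fits within a replicate set were added after seeing the data. The plots used matplotlib 3.10.9 (Python 3.11.15). The number of arrays limits the precision.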

Additional observations from a re-analysis of the deposited data

How the results depend on the processing

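For ABA over all genotypes the 21 calls became 36 with the replicate block, 15 to 21 with each array left out in turn, and 28 to 34 with each left out and the block kept. In the first kind of fit 14 of the 21 loci passed in all 12, in the second 18 did, and none changed direction in either. Array weights, quantile normalization, the variance trend, every transcript feature, the loss of the dimmest 30% of loci and the 77 peroxidases alone gave 19 to 23 calls. Replicate set 1 alone gave 27 (5 higher and 22 lower, against 5.72% and 5.23% of all loci) and set 2 alone 16 (6 and 10, against 4.74% and 3.4%). Within 1 genotype the block gave 13 calls in wild type, 14 in gem1 and 13 in GEMoe. A fit of only the 4 arrays of that contrast, with fewer residual degrees of freedom, gave 0 in each. The variance trend gave 4 in gem1 and 4 in GEMoe, and the loss of the dimmest loci and quantile normalization each gave 4 in gem1. With each array left out wild type had 0 to 4, gem1 1 to 3 and GEMoe 1 to 3 calls, and with the block kept 5 to 16, 4 to 13 and 6 to 13. The replicate set difference had 26 to 38 calls over its alternatives. Genotype contrasts and differences of response had 0 under every alternative run. AT5G19890 had an adjusted p of 0.0567 after quantile normalization and AT4G11290 in wild type one of 0.0575 with array weights. The causes were not tested. The files used here hold no background call, so dim loci such as AT4G17690 could not be set against background.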

Other observations

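Several further peroxidase loci moved in opposite directions with ABA in the replicates. AT5G47000 stood at 10.82, 11.04 and 10.59 with ABA in replicate 1 (arrays labelled gem1, GEMoe and wild type), against 11.70, 12.13 and 11.97 untreated. In replicate 2 it stood at 10.70, 10.53 and 10.85 with ABA, against 10.10, 10.07 and 10.03 untreated. All 3 pairs were thus lower in replicate 1 and all 3 higher in replicate 2, with means of -1.12 and 0.63. AT5G24070 did the reverse, with means of 0.31 in replicate 1 and -1.01 in replicate 2. AT1G14550, the neighbour of PER4, had 0.20 and -0.93, beside 0.03 and -2.97 in PER4. These loci were picked after their values were seen, and the differences between the replicates were not tested.

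In replicate set 2 alone, PER4 was lower with ABA by -2.97 (3 arrays against 3, with 1 array per genotype and treatment). In set 1 alone PRX25 was lower by -0.91 and PER40 by -0.76. In the other set PER4, PRX25 and PER40 differed by 0.03, 0.21 and -0.14. These loci were singled out after their values were seen, and none passed over both sets, without or with the block.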
